A study of Mus musculus with 26 samples.

Results

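Osteoblasts from the femurs of 18-month mice (OLD) were compared with osteoblasts from the femurs of 3-month mice (YOUNG) by RNA sequencing. These are 6 of the 26 samples of the series, 3 libraries in each group, and they were taken by their labels, with no measured value in the choice. Both groups were C57BL/6J mice for which the labels name no allele and no agent, and the osteoblasts were isolated and kept in DMEM with 10% fetal bovine serum before total RNA was taken. The remaining 12 RNA libraries belong to 4 other groups. They entered the filter on low counts, the scaling of the libraries and the estimate of the spread, and their own levels are not compared here. Another 8 samples, of another assay, are not analysed here. Whether the 3 replicates of a group were separate animals or cultures is not labelled, and the spread that the p-values rest on may therefore be technical.

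Osteoblasts build bone by secreting a matrix made mostly of type I collagen and by mineralising it, for which they need enzymes that release and concentrate phosphate. The Wnt, BMP and parathyroid hormone pathways drive their formation and activity, and osteoblasts in turn steer osteoclasts, the bone-resorbing cells of the macrophage lineage, through RANKL (Tnfsf11) and its decoy receptor osteoprotegerin (Tnfrsf11b). With age, bone formation declines relative to resorption in mice and humans. In RNA from a whole culture, fewer cells of a type and less RNA per cell cannot be told apart.

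The 6 libraries held 53847779 to 77698781 counts, and levels are given as CPM, counts per 1e6 counts with libraries scaled by TMM. Differences are log2 fold changes of OLD over YOUNG, so that a negative value means a lower level in OLD. Of 14 osteoblast markers, 13 stood at 1 CPM or more in all 6 libraries, the exception being Phex at 0.521 CPM in YOUNG 3. Sost, the osteocyte Wnt inhibitor, had no count in any of them. The libraries divided across the age groups. Malat1, a nuclear RNA, took 0.178% of the counts in YOUNG 3 and 0.173% in OLD 2, and 0.0296% to 0.0386% in YOUNG 1, YOUNG 2, OLD 1 and OLD 3. The same pair had Xist at 0.251 and 0.0707 CPM and the Y-linked Ddx3y at 70.4 and 36.2 CPM, while the other 4 had Xist at 391 to 481 CPM and Ddx3y at 0. They are called here the high Malat1 pair and the low Malat1 set, and the sex-linked transcripts divide them in the same way. OLD 1 and OLD 3 were the most alike of all pairs (Spearman 0.995 across genes, 0.322% of genes over 2-fold apart). On the squared scale, the median gap between their levels was 6.3-fold what counting alone would give. The same ratio was 49.5 for YOUNG 1 and YOUNG 2. OLD 1 and OLD 3 were kept as separate libraries. YOUNG 1 and YOUNG 2 had 3.37% of genes over 2-fold apart, against 23.4% for YOUNG 1 and YOUNG 3 and 13.4% for YOUNG 3 and OLD 2. The spread between replicates was therefore wide. The biological coefficient of variation was 51.9% over the 18 libraries of all groups and 45.7% over the 6 libraries of YOUNG and OLD. It was 30.5% over the 6 once a term for the library set was fitted.

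**Figure D1:**
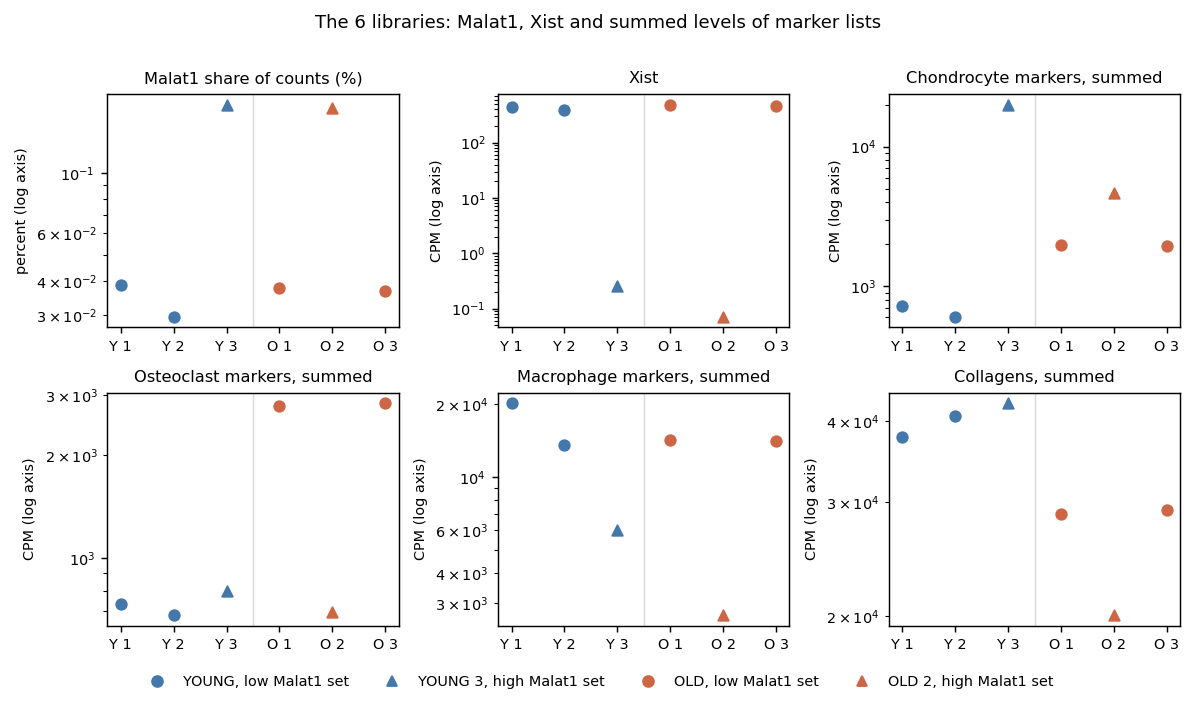
Level in each of the 6 libraries of Malat1 (percent of counts), of Xist, and of the summed members of 4 gene lists (CPM), all on log axes; blue is YOUNG, orange OLD, circles the low Malat1 set and triangles the high Malat1 pair. YOUNG 3 and OLD 2 part from the other 4 by Malat1 and Xist, YOUNG 3 has the most chondrocyte marker RNA, OLD 1 and OLD 3 the most osteoclast marker RNA, and collagens are lower in every OLD library.

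Markers of other cell types differed between the libraries and are given here because they touch the results that follow. The 23 chondrocyte markers summed to 19897 CPM in YOUNG 3, to 726 and 606 CPM in YOUNG 1 and YOUNG 2, and to 1967, 4651 and 1952 CPM in OLD 1, OLD 2 and OLD 3. The 19 osteoclast markers summed to 679 to 797 CPM in YOUNG, to 694 CPM in OLD 2, and to 2785 and 2848 CPM in OLD 1 and OLD 3. The 35 macrophage and monocyte markers summed to 20147, 13494 and 6042 CPM in YOUNG and to 14182, 2684 and 14103 CPM in OLD, so that their lowest levels lay in the high Malat1 pair. Their defining members were present in all 6 libraries, with the F4/80 gene Adgre1 at 23.8 CPM in OLD 2 and 529 CPM in YOUNG 1. The part of these cell types in the differences below was not tested.

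No gene passed the test in OLD against YOUNG over all 18 libraries (0 of 16566, 0.0%; edgeR quasi-likelihood test, smallest adjusted p = 0.74). At an unadjusted p under 0.05 stood 554 genes (3.34%), 207 of them higher in OLD (1.25%) and 347 lower (2.09%). limma-voom also called 0 genes and DESeq2 called 42 (0.202%), 14 higher (0.0672%) and 28 lower (0.134%). Of those 42, 13 had every OLD library above every YOUNG library and 18 had every OLD library below, and 9 were genes for which YOUNG 3 stood over 10-fold above each of the other 5 libraries. Over all genes, the OLD and YOUNG libraries did not overlap for 11.4% of the genes, 950 of them with OLD above (5.73%) and 933 with OLD below (5.63%). The median log2 fold change of all genes was -0.03, with 45.5% above 0 and 54.3% below.

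With a term for the library set, fitted on the 6 libraries alone, edgeR called 2 of 15337 genes (0.013%). Inhbb, which encodes the beta B subunit of activin and inhibin, rose. It stood at 30.2, 25.9 and 24.5 CPM in YOUNG and at 109, 83.0 and 104 CPM in OLD, so that the lowest OLD library lay over 2-fold above the highest YOUNG library (log2 fold change 1.88 ± 0.11 SE, edgeR adjusted p = 0.0408). Tnc, the matrix glycoprotein tenascin C, fell. It stood at 1125, 1196 and 1003 CPM in YOUNG and at 373, 330 and 375 CPM in OLD, with no overlap between the groups (log2 fold change -1.62 ± 0.10 SE, edgeR adjusted p = 0.0408). Both differences were of similar size inside each library set: 1.93 in the low set and 1.76 in the high pair for Inhbb, and -1.63 and -1.60 for Tnc. The fit and the naming rule favour genes that go the same way in both sets, so this likeness is not separate evidence. Over the 18 libraries without the set term, the SE were wider, at 0.75 for Inhbb and 0.87 for Tnc (edgeR unadjusted p = 0.0243 and 0.0816). With any library of the low set left out of the fit with the set term, neither gene passed (edgeR adjusted p = 0.15 to 0.558). The log2 fold changes were then 1.81 to 1.91 for Inhbb and -1.66 to -1.59 for Tnc. At an unadjusted p under 0.05 this fit had 1780 genes (11.6%), 754 higher in OLD (4.92%) and 1026 lower (6.69%). With the same term, limma-voom called 13 genes (0.0848%) and DESeq2 called 771 (3.96%).

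The age difference was also taken within each library set. Over 10933 genes with a mean of at least 5 CPM, the log2 fold changes of the low set (OLD 1 and 3 against YOUNG 1 and 2) and of the high pair (OLD 2 against YOUNG 3) had a Pearson correlation of -0.067 and a Spearman correlation of -0.003, and 49.8% of these genes went the same way in both. These are correlations across genes, which are not independent replicates, and the 2 sets share no library. Of all genes tested, 22.3% were higher in OLD in both sets and 26.3% were lower in both. The difference between the sets itself passed the test in 11 genes (0.0664%, edgeR). The gene groups below are therefore given over all 6 libraries and, for the medians, in each set.

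**Figure D2:**
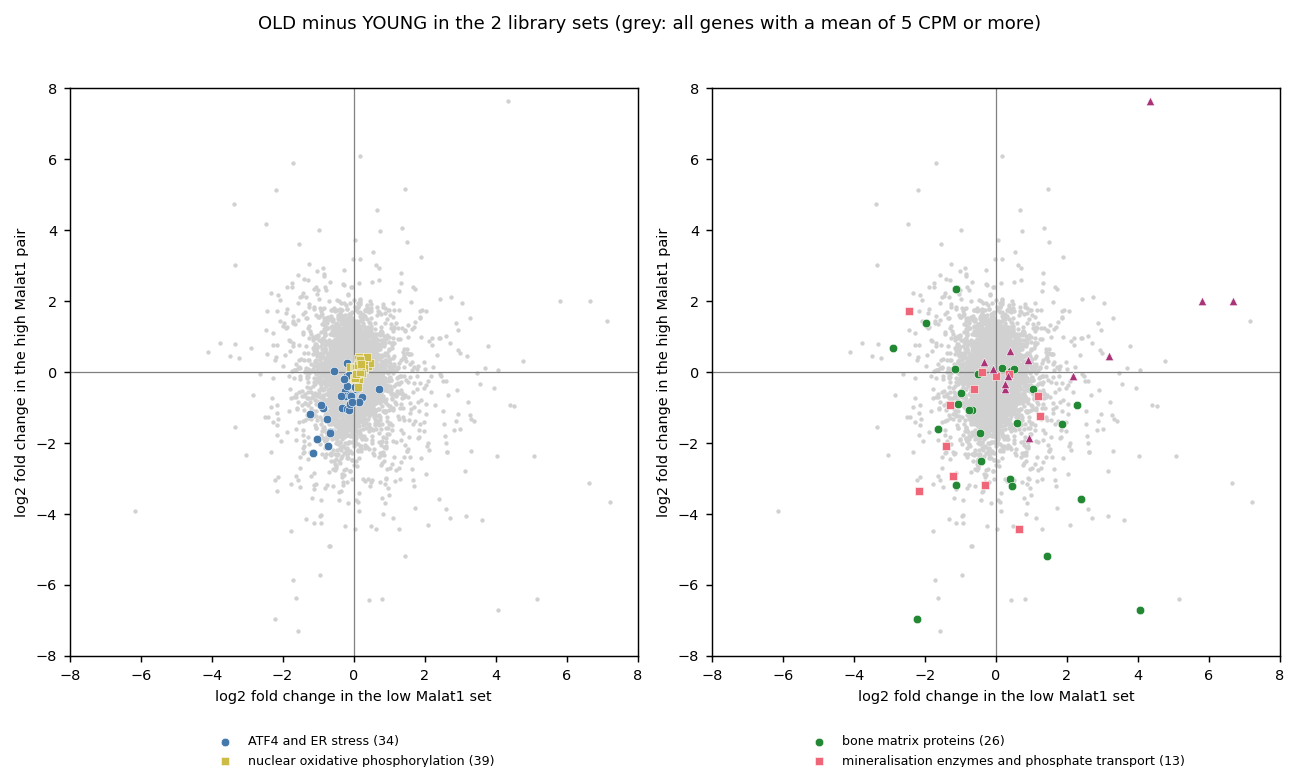
Log2 fold change of OLD minus YOUNG in the low Malat1 set (x axis) and in the high Malat1 pair (y axis) for 10933 genes with a mean of at least 5 CPM (grey; 8 genes lie outside the axes), with the members of 5 lists in colour. The grey genes have a Pearson correlation of -0.067, while ATF4 and ER stress genes gather in the lower left and osteoclast markers spread to the right along the low set's axis.

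Genes for mineralisation lay mostly lower in OLD. The list of mineralisation enzymes and phosphate transport had 17 tested members with a median log2 fold change of -0.40. Of these, 14 were negative and 7 had an unadjusted edgeR p under 0.05, all lower in OLD (2.09% of all genes). Smpd3, the neutral sphingomyelinase without which bone mineralises poorly, stood at 27.3, 26.6 and 24.9 CPM in YOUNG and at 6.33, 2.46 and 5.69 CPM in OLD. Its groups did not overlap, and the difference was -2.44 ± 0.52 SE on the log2 scale (edgeR unadjusted p = 0.000279, adjusted p = 0.74), a change that DESeq2 called (adjusted p = 0.00172). Alpl, the tissue-nonspecific alkaline phosphatase that frees phosphate for mineral, stood at 461, 355 and 635 CPM in YOUNG and at 171, 83.7 and 182 CPM in OLD. The highest OLD library was thus below the lowest YOUNG library (-1.73 ± 0.60 SE, edgeR unadjusted p = 0.0117). Phospho1, the phosphatase that makes phosphate inside matrix vesicles, stood at 110, 89.8 and 94.7 CPM in YOUNG and at 39.8, 50.1 and 42.8 CPM in OLD, again without overlap (-1.15 ± 0.44 SE, unadjusted p = 0.0202). Slc8a3, a sodium-calcium exchanger, stood at 8.48, 7.76 and 7.59 CPM in YOUNG and at 3.39, 1.79 and 2.72 CPM in OLD (-1.59 ± 0.43 SE, unadjusted p = 0.0023). These 4 were the members whose groups did not overlap, all with OLD below (5.63% of all genes), and all 4 were lower in both library sets. Over the whole list 8 of 17 members were lower in both sets (26.3% of all genes), and the list's median was -0.31 in the low set and -0.68 in the high pair, but -0.08 when YOUNG 3 was left out and -0.77 without OLD 1. Fam20c, the kinase of secreted matrix proteins, from the osteocyte list, had 180 CPM in YOUNG 3, 58.0 and 52.8 CPM in YOUNG 1 and YOUNG 2, and 24.1 to 46.6 CPM in OLD.

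**Figure D3:**
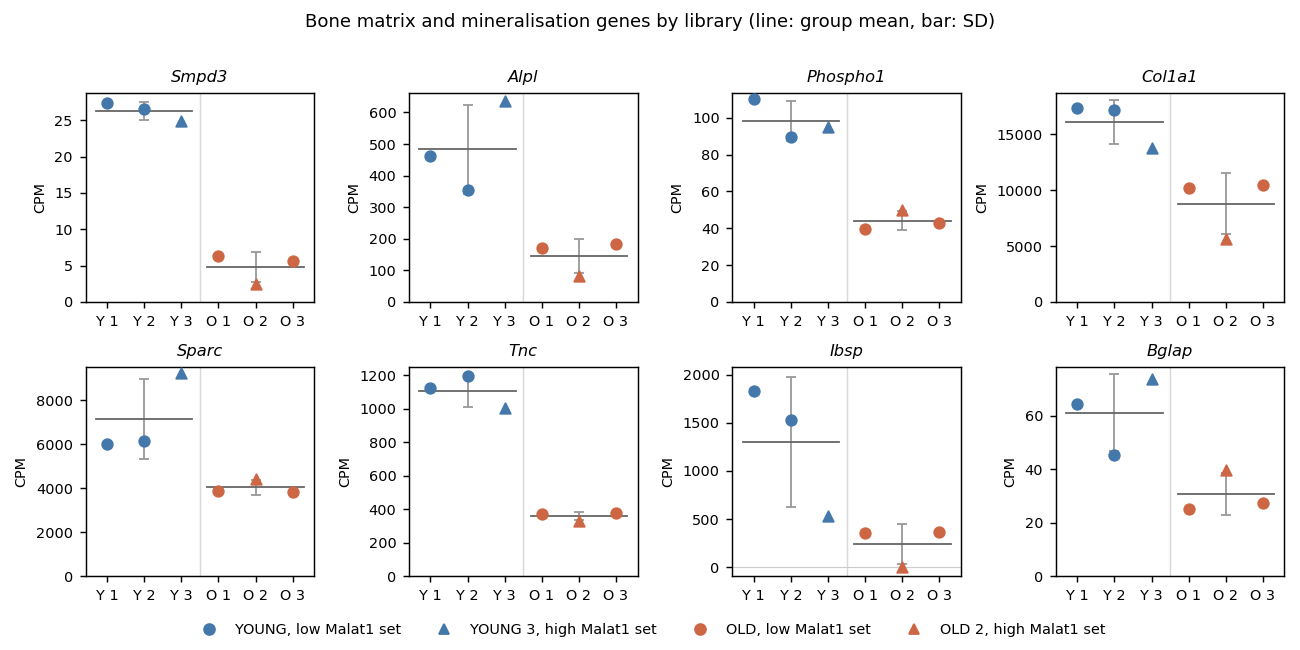
CPM of 8 bone matrix and mineralisation genes in each library, with the group mean as a line and the SD as a bar (n = 3 per group); blue is YOUNG, orange OLD, circles the low Malat1 set and triangles the high Malat1 pair. In all 8 genes each OLD library lies below each YOUNG library, and for Ibsp YOUNG 3 is the nearest of the YOUNG libraries to OLD.

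Bone matrix proteins showed the same direction with more unevenness between libraries. Of 32 tested members, 25 were negative, the median log2 fold change was -0.83, 10 had every OLD library below every YOUNG library (5.63% of all genes) and 2 had OLD above (5.73%). The median was -0.59 in the low set and -1.25 in the high pair, and -0.52 without YOUNG 3. Sparc, or osteonectin, which binds collagen and mineral, stood at 6024, 6161 and 9234 CPM in YOUNG and at 3855, 4433 and 3820 CPM in OLD (-0.82 ± 0.24 SE, edgeR unadjusted p = 0.00411). Ibsp, bone sialoprotein, stood at 1835, 1530 and 535 CPM in YOUNG and at 357, 4.28 and 363 CPM in OLD, so OLD 2 was far below every other library (-2.43 ± 1.24 SE, unadjusted p = 0.0686). Bglap, which encodes osteocalcin, the late osteoblast hormone, stood at 64.2, 45.4 and 73.7 CPM in YOUNG and at 25.2, 39.5 and 27.3 CPM in OLD. Its close copy Bglap2 stood at 65.4 to 86.8 CPM in YOUNG and at 35.2 to 57.3 CPM in OLD, and reads of these paralogs may have been divided between them. Neither had a small p in the fit over 18 libraries (0.406 and 0.576, edgeR, unadjusted), although the groups did not overlap. Both had one in the fit with the set term (0.000696 and 0.00123, edgeR, unadjusted), as 11.6% of all genes had one under 0.05. Neither passed there (edgeR adjusted p = 0.124 and 0.148). Omd, osteomodulin, lay at 12.2 ± 3.79 CPM in OLD and at 45.2 ± 24.5 CPM in YOUNG (SD, n = 3). Spp1, osteopontin, did not follow: it stood at 8164, 7000.2 and 18919 CPM in YOUNG and within 13639 to 15781 CPM in OLD. In both library sets 14 of the 32 members were lower, beside the 26.3% of all genes.

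Among collagens, 18 of 26 members were negative, 8 had OLD below YOUNG without overlap (5.63% of all genes) and 1 had OLD above (5.73%), with a median of -0.60. Col1a1, the chain that makes up most of bone collagen, stood at 17329, 17135 and 13777 CPM in YOUNG and at 10219, 5648 and 10476 CPM in OLD (-0.87 ± 0.39 SE, edgeR unadjusted p = 0.041). Its partner chain Col1a2 stood at 10801 to 12126 CPM in YOUNG and at 6384 to 7976 CPM in OLD (-0.61 ± 0.32 SE). The fibril-regulating chains Col5a1 and Col5a2 had differences of -0.92 ± 0.43 SE and -0.59 ± 0.23 SE. All 4 of these genes had non-overlapping groups and the same direction in both sets. Col2a1, the main cartilage collagen, was found mainly in YOUNG 3, with 13548 CPM there and 12.2 to 48.0 CPM elsewhere, and Col10a1, of hypertrophic cartilage, had 233 CPM in YOUNG 3 and 0.851 to 3.15 CPM elsewhere. Their log2 fold changes of -7.87 and -6.18 therefore rest on that 1 library. The median of the collagen list was -0.38 in the low set, -1.05 in the high pair and -0.21 without YOUNG 3.

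Genes that process collagen were mixed, with 22 of 29 negative at a median of -0.30, which was -0.06 in the low set and -0.60 in the high pair and became 0.11 without YOUNG 3. Creb3l1, the ER-bound factor that drives Col1a1 in osteoblasts, stood at 242, 188 and 251 CPM in YOUNG and at 117, 86.5 and 124 CPM in OLD (-1.05 ± 0.30 SE, edgeR unadjusted p = 0.00331). Loxl2, a lysyl oxidase that crosslinks collagen, stood at 466, 685 and 368 CPM in YOUNG and at 155, 114 and 158 CPM in OLD (-1.83 ± 0.84 SE, unadjusted p = 0.0448). Timp3, an inhibitor of matrix proteases, stood at 3655, 5694 and 3681 CPM in YOUNG and at 1082, 1489 and 1066 CPM in OLD (-1.84 ± 0.56 SE, unadjusted p = 0.00473). For these 3 genes no OLD library reached the YOUNG range. In the other direction, Fbln2, the matrix protein fibulin 2, stood at 474, 311 and 583 CPM in YOUNG and at 1461, 1150.4 and 1451 CPM in OLD (1.57 ± 0.36 SE, unadjusted p = 0.000548). DESeq2 called Fbln2 higher in OLD (adjusted p = 0.0137).

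The transcription factors of the osteoblast lineage had a median of -0.16 over 24 members (-0.14 in the low set, -0.09 in the high pair, -0.01 without YOUNG 3). Runx2, which commits cells to the lineage, stood at 46.2 to 76.9 CPM in YOUNG and at 59.0 to 77.9 CPM in OLD and overlapped. Sp7, osterix, which acts after Runx2, stood at 111, 122 and 109 CPM in YOUNG and at 60.4, 80.8 and 62.1 CPM in OLD, so the groups did not overlap (-0.75 ± 0.43 SE, edgeR unadjusted p = 0.103). Prrx1, a factor of skeletal progenitors, lay higher in OLD (313 to 520 CPM against 236 to 305 CPM, 0.54 ± 0.21 SE, unadjusted p = 0.0207).

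In the Wnt pathway, 19 of 26 tested target genes were negative. Their median was -0.58, with -0.26 in the low set, -0.70 in the high pair and -0.09 without YOUNG 3. Tcf7, a nuclear partner of beta-catenin, stood at 9.22, 8.31 and 13.6 CPM in YOUNG and at 5.17, 2.71 and 6.13 CPM in OLD (-1.15 ± 0.34 SE, edgeR unadjusted p = 0.00401). Lef1, its relative, stood at 1.18, 1.1 and 5.21 CPM in YOUNG and at 0, 0.177 and 0.313 CPM in OLD (-3.92 ± 1.04 SE, unadjusted p = 0.00194), and DESeq2 called it (adjusted p = 0.00585). Both were below the YOUNG range in each OLD library. Axin2, the feedback inhibitor most often read as a Wnt reporter, stood at 2.81, 2.99 and 9.50 CPM in YOUNG and at 2.84, 3.29 and 2.45 CPM in OLD, so that only YOUNG 3 stood apart from the rest (-0.83 ± 0.62 SE, unadjusted p = 0.199). Among ligands, R-spondins and secretion factors, 15 of 19 were negative (median -0.67). Of these 19, 2 had every OLD library above every YOUNG library (5.73% of all genes) and 2 had every OLD library below (5.63%). The median was -0.96 in the low set and -0.05 in the high pair, where 8 were positive. Wnt10b, a ligand that favours bone over fat, stood at 17.0, 15.5 and 17.0 CPM in YOUNG and at 5.68, 9.59 and 5.36 CPM in OLD (-1.27 ± 0.48 SE, unadjusted p = 0.0181), and Wnt4 stood at 6.68 to 23.6 CPM in YOUNG and at 3.75 to 6.00 CPM in OLD. The R-spondin Rspo1 went the other way at low levels, with 0, 0 and 0.502 CPM in YOUNG and 1.45, 2.19 and 1.24 CPM in OLD. Rspo1 also passed within the low set (edgeR adjusted p = 0.0467). Secreted antagonists went both ways: Wif1 stood at 34.4, 44.9 and 179 CPM in YOUNG and at 16.3, 10.1 and 15.1 CPM in OLD, whereas Draxin stood at 3.28, 4.29 and 13.4 CPM in YOUNG and at 27.9, 35.1 and 27.8 CPM in OLD. The differences were -2.64 ± 0.71 SE and 2.11 ± 0.70 SE (edgeR unadjusted p = 0.00203 and 0.00871), with no overlap in either gene.

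BMP and TGF-beta signalling genes had medians of -0.20 over 36 members and -0.13 over 29. They were -0.12 and 0.01 in the low set, -0.34 and -0.10 in the high pair, and -0.06 and 0.22 without YOUNG 3. Besides Inhbb, Tgfbr3 (betaglycan, the co-receptor that binds TGF-beta and inhibin) stood at 29.3, 40.2 and 70.0 CPM in YOUNG and at 96.1, 159 and 92.7 CPM in OLD. Its groups did not overlap (1.32 ± 0.31 SE, edgeR unadjusted p = 0.000668), and it passed within the low set (log2 fold change 1.44, edgeR adjusted p = 0.0456). In the parathyroid hormone axis, the receptor Pth1r stood at 174, 147 and 107 CPM in YOUNG and at 84.2, 26.4 and 81.8 CPM in OLD (-1.15 ± 0.47 SE, unadjusted p = 0.0259). Il6 lay higher in OLD (6.56 to 17.0 CPM against 3.57 to 6.53 CPM). Csf1, the growth factor of macrophages and osteoclast precursors, stood at 1115 to 1456 CPM in YOUNG and at 1978 to 2215 CPM in OLD (0.62 ± 0.34 SE). RANKL (Tnfsf11) stood at 1.56, 1.46 and 9.98 CPM in YOUNG and at 11.5, 3.82 and 11.0 CPM in OLD. It rose within the low set (log2 fold change 2.89, edgeR adjusted p = 0.0247) and was -1.39 in the high pair. Osteoprotegerin (Tnfrsf11b) stood at 592 CPM in YOUNG 3, at 30 and 40.5 CPM in YOUNG 1 and YOUNG 2 and at 18.7 to 31.3 CPM in OLD.

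**Figure D4:**
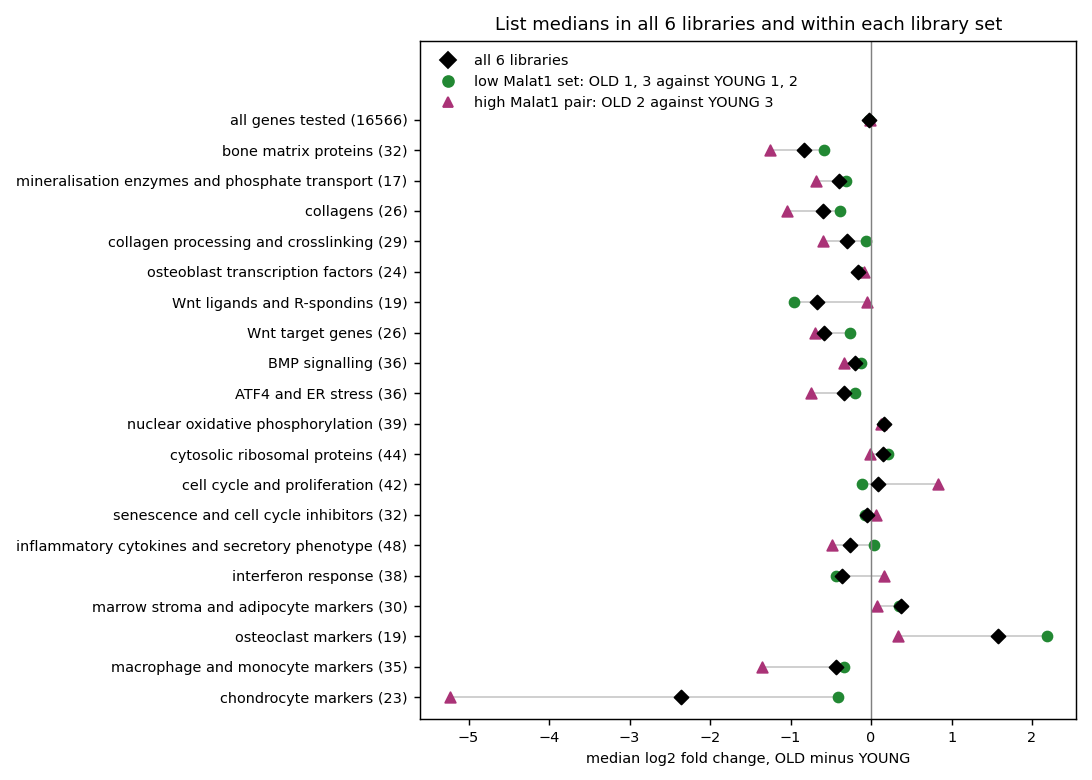
Median log2 fold change of OLD minus YOUNG (x axis) for all genes tested and 19 lists (number of tested members in brackets), over all 6 libraries (diamonds), within the low Malat1 set (circles) and in the high Malat1 pair (triangles). Bone matrix, collagen, mineralisation and ATF4 lists lie left of 0 in both sets, the osteoclast list is at 2.18 in the low set and 0.33 in the high pair, and the chondrocyte list is at -0.41 and -5.23.

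Genes of the ATF4 and ER stress list lay lower in OLD almost throughout. ATF4 is the factor made when the kinase arm of the unfolded protein response or of amino acid shortage slows translation, and in osteoblasts it supplies the amino acids for collagen. Of 36 tested members 35 were negative, 17 had every OLD library below every YOUNG library (5.63% of all genes) and none had OLD above, and 25 were lower in both library sets (26.3% of all genes). The median was -0.34, with -0.20 in the low set, -0.74 in the high pair and -0.22 without OLD 2, and 7 members had an unadjusted edgeR p under 0.05, all lower in OLD (2.09% of all genes). Chac1, the glutathione-degrading enzyme, stood at 28.2, 26.5 and 40.1 CPM in YOUNG and at 17.9, 12.3 and 16.4 CPM in OLD (-1.03 ± 0.28 SE, edgeR unadjusted p = 0.00235). Trib3, the feedback inhibitor of ATF4, stood at 49.6, 39.0 and 34.4 CPM in YOUNG and at 22.9, 9.2 and 20.7 CPM in OLD (-1.22 ± 0.36 SE, unadjusted p = 0.00439). Neither gene's groups overlapped. Slc7a11, the cystine importer, stood at 6.74, 11.1 and 22.8 CPM in YOUNG and at 3.97, 4.65 and 4.10 CPM in OLD, and Nupr1, a stress-induced chromatin protein, at 226, 165 and 278 CPM in YOUNG and at 83.1, 123 and 85.0 CPM in OLD. Vldlr, a lipoprotein receptor, stood at 37.5, 55.7 and 77.7 CPM in YOUNG and at 26.8, 18.5 and 30 CPM in OLD. Ddit3, or CHOP, stood at 60.3, 47.1 and 46.3 CPM in YOUNG and at 28.9, 18.5 and 34.7 CPM in OLD. The amino acid transporter Slc7a5 and the asparagine synthetase Asns had differences of -1.0 ± 0.50 SE and -0.49 ± 0.31 SE. Atf4 itself overlapped, at 211 to 331 CPM in YOUNG and 193 to 259 CPM in OLD (-0.16 ± 0.20 SE).

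**Figure D5:**
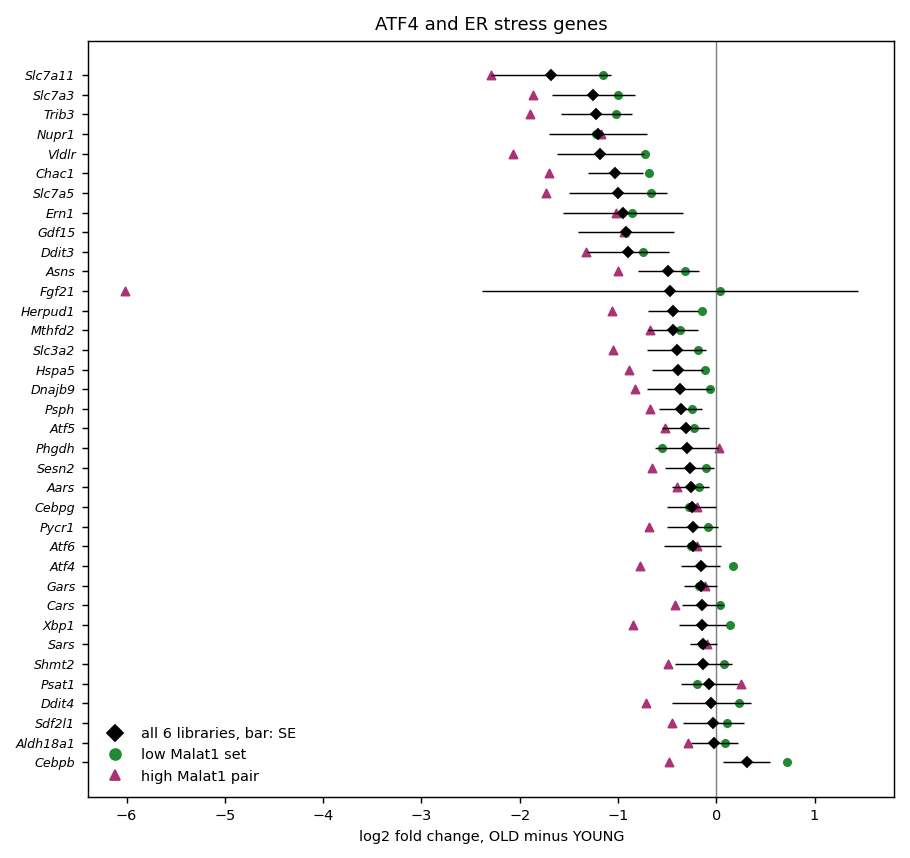
Log2 fold change of OLD minus YOUNG for the 36 ATF4 and ER stress genes: diamonds with SE bars over all 6 libraries, circles the low Malat1 set, triangles the high Malat1 pair. Every gene but Cebpb lies left of 0 over the 6 libraries, as do 27 of them in the low set and 34 in the high pair.

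The promoters of 4 of these genes are shown because they hold the composite site of C/EBP and ATF factors, TGATGNAA, through which ATF4 acts on its targets. Each is the stretch of 250 bases before the annotated start, from RefSeq on GRCm38.p6, 5′ to 3′ on the gene's own strand, with every match on either strand in capitals. They lie at chr2:119350992-119351241 (Chac1, plus strand), chr3:50443614-50443863 (Slc7a11, minus strand), chr19:27216770-27217019 (Vldlr, plus strand) and chr7:126625471-126625720 (Nupr1, minus strand).
Chac1: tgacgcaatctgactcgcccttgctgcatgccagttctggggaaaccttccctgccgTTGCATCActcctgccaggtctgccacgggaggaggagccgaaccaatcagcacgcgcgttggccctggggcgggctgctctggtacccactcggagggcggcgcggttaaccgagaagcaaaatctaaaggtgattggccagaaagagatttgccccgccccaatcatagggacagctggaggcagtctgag
Slc7a11: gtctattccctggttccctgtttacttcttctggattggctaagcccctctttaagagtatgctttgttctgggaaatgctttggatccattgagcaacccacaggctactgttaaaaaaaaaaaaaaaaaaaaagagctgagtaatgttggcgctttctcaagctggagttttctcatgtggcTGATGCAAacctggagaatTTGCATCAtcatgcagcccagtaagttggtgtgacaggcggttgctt
Vldlr: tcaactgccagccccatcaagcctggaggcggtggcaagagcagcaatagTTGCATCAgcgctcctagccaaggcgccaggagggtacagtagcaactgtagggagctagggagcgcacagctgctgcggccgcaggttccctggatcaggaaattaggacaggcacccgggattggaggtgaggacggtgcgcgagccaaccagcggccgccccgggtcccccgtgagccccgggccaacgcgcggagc
Nupr1: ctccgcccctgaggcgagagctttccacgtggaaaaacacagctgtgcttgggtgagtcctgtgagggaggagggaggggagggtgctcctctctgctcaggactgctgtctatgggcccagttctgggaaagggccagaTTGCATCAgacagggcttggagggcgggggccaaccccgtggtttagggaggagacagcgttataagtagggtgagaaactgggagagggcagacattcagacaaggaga
The first match starts 193, 66, 200 and 110 bases before the start of Chac1, Slc7a11, Vldlr and Nupr1, and Slc7a11 has a second. Of 36 tested members of the list 32 had a promoter in the table, and 10 of their 36 promoters held the site (27.8%), against 3.45% of all 32851 promoters. Counted by gene, 10 of the 32 members held it (31.2%). Of the members lower in OLD at an unadjusted edgeR p under 0.05 with a promoter in the table, 4 of 6 held it, and these are the 4 shown. The list was drawn up from known ATF4 targets, so the share describes the list and not the age difference, and a match does not show binding. The RUNX site AACCACA, searched in the same way on both strands, was in 2 of 26 promoters of the bone matrix list (7.69%), 1 of 17 of the mineralisation list (5.88%) and 0 of 23 of the collagen list, against 4.4% of all promoters.

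Genes of oxidative phosphorylation lay slightly higher in OLD, and those of glycolysis did not share a direction. Of 39 tested nuclear genes of oxidative phosphorylation 34 were positive at a median of 0.16, 7 had OLD above without overlap (5.73% of all genes), and 26 were higher in both sets, beside 22.3% of all genes. The median was 0.15 in the low set, 0.12 in the high pair and 0.10 without YOUNG 3. Of 32 glycolysis and hypoxia genes 18 were positive at a median of 0.06, with 0.21 in the low set and -0.25 in the high pair, where 22 were negative. Ndufv1, a core subunit of complex I, stood at 72.3, 65.3 and 86.1 CPM in YOUNG and at 91.1, 102 and 96.8 CPM in OLD (0.38 ± 0.17 SE, edgeR unadjusted p = 0.0399), and it was the only member with an unadjusted p under 0.05. Pcx, pyruvate carboxylase, which feeds carbon into the citric acid cycle, stood at 28.8, 33.0 and 41.9 CPM in YOUNG and at 66.6, 73.4 and 64.8 CPM in OLD (0.98 ± 0.22 SE, unadjusted p = 0.000375). DESeq2 called Pcx higher in OLD (adjusted p = 0.0143). Cytosolic ribosomal protein genes were positive in 43 of 44 over the 6 libraries, and in 21 of 44 in the high pair, and the groups overlapped for all 44.

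Proliferation and senescence genes had no common direction between the sets. The 42 cell cycle genes had a median of 0.08, with -0.11 in the low set and 0.83 in the high pair, where 41 were positive. Their sum was 1115 CPM in YOUNG 3 and 1729.8 to 2343 CPM in the other 5 libraries. Mki67, a proliferation marker, overlapped between the groups (58.6 to 195 CPM in YOUNG, 82.7 to 161 CPM in OLD). Of 32 senescence and cell cycle inhibitor genes none had an unadjusted p under 0.05. Cdkn2a, which encodes the p16 and p19 inhibitors that often increase in aged tissue, stood at 205, 172 and 93.5 CPM in YOUNG and at 168, 138 and 172 CPM in OLD (0.02 ± 1.06 SE, edgeR unadjusted p = 0.983), and counts per gene cannot part its 2 products. Cdkn1a, or p21, lay lower in OLD in all libraries (483 to 597 CPM in YOUNG, 350 to 454 CPM in OLD, -0.38 ± 0.28 SE).

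Polycomb subunits, the subject of the wider study, had a median of 0.04 over 41 members (21 positive and 20 negative; -0.07 in the low set and 0.07 in the high pair). Kdm2b, the DNA-binding subunit of PRC1.1, stood at 37.2, 37.5 and 22.6 CPM in YOUNG and at 34.3, 19.3 and 31.1 CPM in OLD, and its 2 lowest libraries were the high Malat1 pair. The difference was -0.20 ± 0.41 SE (edgeR unadjusted p = 0.63), and it was -0.19 and -0.23 within the sets. Rybp, a subunit shared by variant PRC1 complexes, stood at 29.6, 36.3 and 24.3 CPM in YOUNG and at 20.9, 19.3 and 20 CPM in OLD, without overlap (-0.58 ± 0.33 SE). Pcgf2 stood at 21.5 to 22.9 CPM in YOUNG and at 24.2 to 39.1 CPM in OLD (0.41 ± 0.18 SE). Among developmental regulators, Sox11, a factor of embryonic progenitors, stood at 6.59, 6.6 and 9.06 CPM in YOUNG and at 1.13, 1.31 and 1.16 CPM in OLD (-2.62 ± 0.63 SE, unadjusted p = 0.000785). It fell in the low set by edgeR (log2 fold change -2.52, adjusted p = 0.0456) and was -2.79 in the high pair. Hoxa11, a limb patterning gene, stood at 7.38 to 11.0 CPM in YOUNG and at 1.46 to 4.40 CPM in OLD and also passed in the low set (edgeR adjusted p = 0.0384), while Hoxd8 lay higher in OLD (8.05 to 11.3 CPM against 3.03 to 7.04 CPM). Of 35 tested Hox genes 24 were positive and 11 negative, at a median of 0.32 that was 0.06 without OLD 2. Of 55 tested developmental transcription factors 25 were positive and 29 negative, at a median of -0.07. Nes, the progenitor intermediate filament nestin, stood at 156, 181 and 212 CPM in YOUNG and at 54.6, 55.9 and 54.0 CPM in OLD (-1.74 ± 0.51 SE, unadjusted p = 0.00383). The fibroblast and progenitor markers, the list that holds Nes, did not share its direction, with 17 of 29 positive and 12 negative. Their median was 0.16, with 0.32 in the low set, 0.04 in the high pair and 0.45 without YOUNG 3.

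The genes in this paragraph lie outside these groups, and all of them were chosen after their values were seen. Klra4, a receptor of the Ly49 family, had no count in YOUNG and stood at 7.04, 9.07 and 6.6 CPM in OLD, at least 503-fold higher than a floor of 3 counts over the YOUNG libraries. Reads of this family's near-identical members may be divided among them, so its value is uncertain. Klra4 passed within the low set (edgeR adjusted p = 0.0357). Socs2, which restrains growth hormone signalling, stood at 30.5, 20.3 and 23.9 CPM in YOUNG and at 60.5, 56.5 and 52.6 CPM in OLD (1.18 ± 0.24 SE, edgeR unadjusted p = 0.0002). Nod1, a sensor of bacterial peptidoglycan, stood at 13.8, 8.34 and 12.2 CPM in YOUNG and at 22, 25 and 20.5 CPM in OLD (0.98 ± 0.20 SE, unadjusted p = 0.000189). Neither gene's groups overlapped, and DESeq2 called both (adjusted p = 0.00557 and 0.00172). Hspb7, a small heat shock protein, stood at 18.4, 11.3 and 27.8 CPM in YOUNG and at 126, 107 and 121 CPM in OLD. Gas1, a growth arrest protein, stood at 92.8, 50.1 and 121 CPM in YOUNG and at 464, 212 and 470 CPM in OLD. Kcne4, a potassium channel subunit, stood at 7.42, 13.6 and 5.33 CPM in YOUNG and at 73.4, 23.2 and 67.9 CPM in OLD. All 3 rose in the low set (log2 fold changes 3.06, 2.71 and 2.75, edgeR adjusted p = 0.0262, 0.0456 and 0.0456) and were also above 0 in the high pair (1.94, 0.81 and 2.12). On the lower side, Tcfl5, a helix-loop-helix factor, stood at 4.39, 3.13 and 4.69 CPM in YOUNG and at 0.971, 1.15 and 1.37 CPM in OLD and fell in the low set (log2 fold change -1.68, edgeR adjusted p = 0.0365). Fabp5, a fatty acid carrier, stood at 178 to 220 CPM in YOUNG and at 107 to 109 CPM in OLD.

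Genes of other cell types gave the largest and the least even differences. Of 19 osteoclast markers 15 were positive (median 1.58) and 10 had an unadjusted edgeR p under 0.05, all higher in OLD (1.25% of all genes). In both library sets 10 were higher and 0 lower. Acp5, the tartrate-resistant acid phosphatase, stood at 7.81, 14.0 and 6.49 CPM in YOUNG and at 596, 25.8 and 632 CPM in OLD (5.47 ± 1.40 SE, unadjusted p = 0.00143). Mmp9, a gelatinase of osteoclasts, stood at 8.42, 6.44 and 1.26 CPM in YOUNG and at 747, 5.00 and 763 CPM in OLD. Ctsk, the osteoclast collagen protease that fibroblasts also express, stood at 148, 143 and 218 CPM in YOUNG and at 659, 201 and 666 CPM in OLD and rose in the low set (log2 fold change 2.18, edgeR adjusted p = 0.00414), while it was -0.12 in the high pair. In all 3 genes OLD 1 and OLD 3 were far above the other libraries. Against YOUNG 3, in the high pair, OLD 2 was higher by 1.99 on the log2 scale for Acp5 and also by 1.99 for Mmp9. Its Acp5 level lay above every YOUNG library, but its Mmp9 level lay below YOUNG 1 and YOUNG 2. The summed osteoclast markers of OLD 2 (694 CPM) were within the YOUNG range (679 to 797 CPM). Macrophage and monocyte markers were negative in 32 of 35 and lower in both sets in 30 (26.3% of all genes), with a median of -0.43 over the 6 libraries, -0.34 in the low set and -1.35 in the high pair. No member had an unadjusted p under 0.05 over the 18 libraries, and 14 did with the set term, all lower in OLD (6.69% of all genes). The median turned to 0.15 without YOUNG 1 and to 0.10 without OLD 2. Interferon response genes were negative in 36 of 38 in the low set and in 15 of 38 in the high pair. Tnf stood at 210, 150 and 10.4 CPM in YOUNG and at 26.3, 6.58 and 23.7 CPM in OLD, and Tnfaip3, the feedback inhibitor of NF-kappaB, at 149, 158 and 19.2 CPM in YOUNG and at 24.4, 18.5 and 25.2 CPM in OLD. In both genes YOUNG 1 and YOUNG 2 were high and YOUNG 3 was with OLD. The list of inflammatory cytokines and secretory phenotype had 35 of 48 members negative (median -0.26, 0.04 in the low set and -0.48 in the high pair). In the low set edgeR called 3 of them higher (0.32% of all genes) and 1 lower (0.0604%). Its member Il1r1, an interleukin 1 receptor, rose in the low set (log2 fold change 2.04, edgeR adjusted p = 0.0166) and was -0.36 in the high pair. Of 30 marrow stroma and adipocyte markers 18 were positive at a median of 0.37, with 0.35 in the low set, 0.07 in the high pair and 0.10 without OLD 3. Their sum was lowest in OLD 2 (2556 CPM) and highest in OLD 1 and OLD 3 (5373 and 5352 CPM). Plin4, a lipid droplet protein, stood at 1.5, 6.71 and 11.5 CPM in YOUNG and at 23.6, 22.5 and 19.9 CPM in OLD, and Ebf3, a factor of marrow stromal cells, at 6.31, 5.51 and 3.48 CPM in YOUNG and at 13.3, 13.4 and 12.1 CPM in OLD. Neither overlapped (edgeR unadjusted p = 0.0137 and 0.0182).

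Within the low set alone edgeR called 63 genes (0.38%), 53 higher in OLD (0.32%) and 10 lower (0.0604%). Their medians were 2.53 and -1.98 there. In the high pair the same 53 genes had a median of -0.11, 23 positive and 30 negative, and the same 10 had a median of -0.39, 4 positive and 6 negative. Of the 53, 48 had YOUNG 3 above both other YOUNG libraries and 14 had groups that did not overlap, beside 5.73% of all genes with OLD above. The 53 were called for higher levels in OLD 1 and OLD 3 than in YOUNG 1 and YOUNG 2. The 14 are therefore no separate result. Prg4, lubricin, is an example: it stood at 76.7, 22.2 and 2292 CPM in YOUNG and at 711, 3764 and 660 CPM in OLD, and so the high pair had the highest values in each group. The high pair alone gave 9 calls (0.0543%), with 1 library in each group and the spread taken from the other groups, so these describe the 2 libraries and not the ages.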

How the data were processed

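The values the authors deposited are counts of reads for each gene symbol, whole numbers that were not normalized. Per the submitters' processing notes, FastQC, Trim Galore, HISAT2 and the mm39 build were used. The versions, counting program, annotation and strand setting were not given in the sources used here. Hence overlapping or antisense genes and near-identical paralogs cannot be told apart. Of 26264 symbols, 24964 matched a table of gene names, 20832 had a count and 16566 passed edgeR's filterByExpr (minimum count 10, minimum total 15).

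From the deposited counts, OLD was tested against YOUNG with edgeR 4.0.16 (TMM, robust quasi-likelihood F test, two-sided, 1 coefficient per group over 18 libraries, 12 residual degrees of freedom, Benjamini-Hochberg over all genes, threshold 0.05). The SE of a log2 fold change is that implied by the F statistic. A second fit used the 6 libraries with a term for library set (Malat1 share above or below 0.05%, 3 residual degrees of freedom), and another had 1 coefficient per group and set over 18 libraries (8 residual degrees of freedom). Alternatives were DESeq2 1.42.0, limma-voom (limma 3.58.1), other scalings and filters, a replicate block and leaving out each library. The fits were run on simulated counts as a check of the code. These counts had less random spread between replicates than the data, so they do not measure power or false calls here. R 4.3.3, Python 3.11.15 and matplotlib 3.10.9 were used.

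CPM use TMM library sizes, and 1 count was worth 0.0127 to 0.0193 CPM. A fold against a group at 0 used a floor of 3 counts over the group. Floors cover counting error only. The 40 gene lists and the members were chosen with earlier results of these data known, and lists are described by counts and medians without a test. The naming rule gave 80 genes: Kdm2b, Axin2, Lef1, Bglap and Cdkn2a, up to 12 increases and 12 decreases called in each fit, if the higher group averaged 5 CPM or more and all OLD libraries lay on one side of the YOUNG range (for the set term, this held within the low set, with the same direction in the high pair), and the 2 of smallest p of each list (up to 4 where called). The rule passes over Xist, Y-linked genes and predicted symbols. Another 55 were named after their values were seen. Same-numbered libraries of OLD and YOUNG share only a number.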

Additional observations from a re-analysis of the deposited data

Results flagged for a closer look

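The age difference itself differed between the library sets in 11 genes (0.0664% of 16566; edgeR, test of the high pair's difference minus that of the low set, with 1 library per group in the high pair). In 7 of them it was lower in the high pair. Ahr, the dioxin receptor, differed by -4.46 (0.99 in the low set, -3.46 in the high pair, edgeR adjusted p = 0.0311), and the fibrillar collagen gene Col5a3 by -3.37 (0.76 and -2.61, adjusted p = 0.0311). The cadherin gene Cdh22 differed by -13.83 (8.80 and -5.03), and Lnx1, a ubiquitin ligase, by -5.24 (4.35 and -0.89), both with the same adjusted p. The interleukin 33 receptor Il1rl1 differed by -4.62 (2.61 and -2.01, adjusted p = 0.033), the protease gene Htra3 by -2.59 (0.42 and -2.18, adjusted p = 0.0466) and the stromelysin gene Mmp3 by -10.89 (7.22 and -3.66, adjusted p = 0.0466).

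In the other direction, the DNA helicase gene Hells differed by 2.43 (-0.42 in the low set and 2.00 in the high pair), the mitochondrial transhydrogenase gene Nnt by 3.60 (-1.46 and 2.13) and the predicted gene Gm43305 by 11.24 (-10.0 and 1.24), each with an edgeR adjusted p of 0.0311. Tnfaip3 differed by 2.58 (-2.63 and -0.05, adjusted p = 0.0466). Malat1, Xist and the Y-linked genes part the same libraries, and marker RNA of chondrocytes, macrophages and osteoclasts differs between them as given above; their part in these differences was not tested.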

How the results depend on the processing

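Against 0 genes called by edgeR over 18 libraries, DESeq2 called 42, the set term over 6 libraries 2, the low set alone 63 and the high pair alone 9, and leaving out 1 library gave 0 to 2, the 2 without YOUNG 3. RLE factors, total counts, no filter, a stricter filter (1 CPM in 3 libraries), limma-voom, the 6 libraries alone and the set term over 18 libraries gave 0. A replicate block over the 6 libraries also called 0, with 470 genes at an unadjusted p under 0.05 against 694 in the same 6 libraries without the block; across genes, the deviations of libraries 1, 2 and 3 of OLD correlated with those of the YOUNG library of that number at 0.496, -0.267 and -0.436, and not every library correlated best with its own number. With the set term, 2 calls became 771 by DESeq2, 13 by limma-voom and 9 without a filter, and 0 to 1 when a low-set library was left out (Acan, without OLD 1), where Inhbb and Tnc kept their folds but had adjusted p of 0.15 to 0.558. The cause was not tested.

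Of 1872 alternative values of single genes, 20 changed sign. Mmp3, at -1.25, was 4.24 by limma-voom, 5.46 and 4.93 with a set term (6 and 18 libraries). Leaving out 1 library turned the sign within these ranges: Kdm2b -0.40 to 0.01, Cdkn2a -0.24 to 0.26, Runx2 -0.01 to 0.37, Atf4 -0.29 to 0.04, Mki67 -0.53 to 0.10, Adgre1 -0.97 to 0.00, Chad -12.09 to 0.79, Acan -12.45 to 1.23, Ppbp -0.88 to 3.20, Prg4 -0.22 to 5.09 and Mmp3 -1.84 to 6.95. With the set term over 18 libraries Cdkn2a was -0.11 and Mki67 0.01. Of 560 alternative list medians 55 moved by more than the spread between replicates, 16 of them without YOUNG 3. Depth limits genes near a few counts, 1 count being 0.0127 to 0.0193 CPM.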
